A study of Mus musculus with 18 samples.

Results

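The genes described here are 10 genes of the endoplasmic reticulum (ER) and of the unfolded protein response: Hspa5, Hsp90b1, Hyou1, Dnajb9, Sdf2l1, Calr, Pdia4, Creld2, Herpud1 and Xbp1. They were followed in livers of 3 mutant mouse lines on 18 single-colour arrays, and were taken as all non-control probes whose transcript accession belongs to 1 of these symbols. This gave 14 of 41174 probes and 10 of the 17721 genes tested, and each probe was well above background and unsaturated on all 18 arrays. Each of the 6 groups held 3 liver samples of female mice aged 6 weeks. The Nrf1 CKO group was Nrf1(dN/-)::Alb-Cre, with the dN allele over a null allele, in which Cre under the albumin promoter, active in hepatocytes, deletes Nrf1 (gene symbol Nfe2l1). Its control was Nrf1(dN/+), which carries the dN allele over a wild-type allele, with no Cre named. The groups thus differ in the second allele as well as in the Cre named. The Nrf2 KO group was Nrf2(-/-), without Nrf2 (Nfe2l2) in any tissue, and its control was Nrf2(+/+). The Keap1 KD group was Keap1(Kd/-), with 1 lowered and 1 null allele, and its control, Keap1(Kd/+), carries the lowered allele too. The strain is given as mixed for the Nrf1 and Keap1 lines and as C57BL/6 for the Nrf2 line. Nothing says that the 3 samples of a group came from separate animals. The p-values set a difference of group means against the spread of samples within all 6 groups, and that spread can be technical.

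Secreted and membrane proteins fold in the ER, and the liver secretes most plasma proteins. When unfolded proteins accumulate there, the sensors IRE1, PERK and ATF6 act through the transcription factors XBP1, ATF4 and cleaved ATF6 on genes of chaperones, of disulfide formation and of ER-associated degradation, by which misfolded proteins are returned to the cytosol for the proteasome. NRF1 and NRF2 belong to 1 family of factors that act through antioxidant response elements. NRF1 is itself a protein of the ER membrane, released into the nucleus after processing, and KEAP1 directs NRF2 to degradation.

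Some promoters of such genes are known for the ER stress response element (ERSE), bound by NF-Y and ATF6, or for its shorter form ERSE-II. The 250 bases before the start were listed in RefSeq, for build GRCm38.p6, for 9 of the 10 genes, all but Hyou1. The 5 with a match to either element are shown, to let the place of the element be seen in each. Capitals mark the matched element, which was searched on both strands as CCAAT followed after 9 bases of any kind by CCACG (ERSE) and as ATTGG followed after 1 base by CCACG (ERSE-II), and each sequence runs 5′ to 3′ along its gene. They lie at chr2:34771840-34772089 on the plus strand (Hspa5), chr10:86705445-86705694 on the minus strand (Hsp90b1), chr8:84846932-84847181 on the minus strand (Calr), chr15:88819396-88819645 on the plus strand (Creld2) and chr8:94386179-94386428 on the plus strand (Herpud1).
Hspa5: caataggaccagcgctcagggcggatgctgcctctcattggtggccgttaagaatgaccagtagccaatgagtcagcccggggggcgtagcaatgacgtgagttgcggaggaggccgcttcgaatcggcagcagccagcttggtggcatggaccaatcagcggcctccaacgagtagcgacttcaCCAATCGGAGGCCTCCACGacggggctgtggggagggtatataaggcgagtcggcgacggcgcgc
Hsp90b1: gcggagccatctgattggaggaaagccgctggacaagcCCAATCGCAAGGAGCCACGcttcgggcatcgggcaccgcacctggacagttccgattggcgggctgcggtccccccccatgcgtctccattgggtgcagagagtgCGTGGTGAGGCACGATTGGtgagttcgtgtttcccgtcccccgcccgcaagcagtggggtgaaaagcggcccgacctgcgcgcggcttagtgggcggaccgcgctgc
Calr: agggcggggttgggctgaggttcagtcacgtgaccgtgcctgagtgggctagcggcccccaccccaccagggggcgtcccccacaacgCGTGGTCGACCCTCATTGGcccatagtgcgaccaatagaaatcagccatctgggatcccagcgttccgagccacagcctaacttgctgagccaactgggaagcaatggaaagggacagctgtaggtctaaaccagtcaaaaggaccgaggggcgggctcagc
Creld2: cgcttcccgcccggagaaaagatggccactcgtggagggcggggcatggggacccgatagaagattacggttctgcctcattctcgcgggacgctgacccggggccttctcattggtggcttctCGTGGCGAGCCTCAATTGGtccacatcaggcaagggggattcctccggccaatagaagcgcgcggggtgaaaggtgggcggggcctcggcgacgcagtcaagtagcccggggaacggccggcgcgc
Herpud1: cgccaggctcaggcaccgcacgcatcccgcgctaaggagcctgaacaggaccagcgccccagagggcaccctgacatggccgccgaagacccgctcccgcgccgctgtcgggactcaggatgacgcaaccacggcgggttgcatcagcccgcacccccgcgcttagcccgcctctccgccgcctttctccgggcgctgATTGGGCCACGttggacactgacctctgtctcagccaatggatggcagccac
An ERSE was found in 4 of the 9 promoters. Along the gene it ran from base 65 to 47 before the start in Hspa5 and from base 212 to 194 in Hsp90b1. On the other strand it lay from base 107 to 89 in Hsp90b1, from base 162 to 144 in Calr and from base 126 to 108 in Creld2. Of 32851 mouse promoter windows of the same length, 0.113% held it. Herpud1 held an ERSE-II from base 52 to 42, which 0.0304% of all windows held. The core letters of the antioxidant response element, TGANNNNGC, were found in 4 of the 9 promoters (Hspa5, Calr, Herpud1 and Creld2) and in 35.2% of all windows, and in Herpud1 1 of the matches overlaps the ERSE-II. The letters TGACGTGG, a core bound by XBP1 and ATF6, were found in none of the 9 and in 0.563% of all windows. TGATGCAA, a form of the element bound by ATF4 with C/EBP proteins, was found in Herpud1 and in 0.791% of all windows. Dnajb9, Xbp1, Sdf2l1 and Pdia4 had no ERSE or ERSE-II in these 250 bases.

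Each array had between 21668 and 28213 of its spots well above background, and the arrays of a group correlated at r from 0.973 to 0.991 across genes. In the Nrf1 line the 75th percentile of an array's signal was 193 to 251 in controls and 306 to 404 in the CKO, without overlap. Spots well above background there numbered 22694 to 23725 and 24962 to 26080. Array signal and genotype thus run together in this line, and the part of this in the changes was not tested. The targeted genes followed the labels. Nfe2l1 was not well above background on any of the 3 Nrf1 CKO arrays and was at least 470-fold lower than in its control, taking for each CKO array the lowest signal among probes well above background. Nfe2l2 had a mean level of 3.32 in its control and of -4.88 in Nrf2 KO, where 1 of 3 arrays was above background, and Keap1 fell from 4.19 ± 0.81 to 1.80 ± 0.06 (log2 change -2.39, SE 0.31, adjusted p = 0.00123). Whether the probes lie within the deleted parts was not examined. All 8 measured hepatocyte marker genes were above background on every array. A level here is a log2 signal after subtraction of the log2 75th percentile of its array, so that 1 unit is a 2-fold difference; levels of different probes are not compared. Changes are mutant minus control of the same line, tested with limma over all 18 arrays, and calls were made at an adjusted p under 0.05, with the adjustment over all 17721 genes.

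None of the 10 genes was called in any line. The share called among all genes was 19.0% in Nrf1 CKO (3364 genes), 0.0621% in Nrf2 KO (11 genes) and 5.55% in Keap1 KD (984 genes). At an unadjusted p under 0.05 there were 1, 2 and 0 of the 10 genes, against 34.7%, 8.88% and 16.8% of all genes. In Nrf2 KO 9 of 10 were below 0 with a median of -0.54 (all genes 0.01, with 49.2% below 0), in Nrf1 CKO 6 were above 0 with a median of 0.09 (all genes -0.09), and in Keap1 KD 4 were above 0 with a median of -0.11 (all genes 0.00). In Nrf2 KO the 3 mutant arrays lay below the 3 controls for 5 genes (Hsp90b1, Sdf2l1, Pdia4, Calr and Creld2), as they did for 11.1% of all genes, and above them for 0 (9.75% of all genes). In Nrf1 CKO they lay above the controls for 4 (Sdf2l1, Calr, Creld2 and Hyou1), as for 15.2% of all genes, and below them for 0 (28.3% of all genes). In Keap1 KD the groups overlapped for all 10, while 5.57% of all genes lay higher and 11.4% lower without overlap. The median standard error of a change was 0.31 for the 10 genes and 0.24 for all genes. Each standard error rests on the spread within all 6 groups, so the wide spread of the Keap1 arrays enters those of the other lines. In the limma fit of the Nrf1 line alone, adjusted p was 0.0815 for Sdf2l1 and 0.127 for Calr (all arrays 0.349 and 0.470). For Herpud1 it was 0.131 (all arrays 0.0649), and none of the 10 passed. In liver tissue, fewer cells of a type and less RNA per cell cannot be told apart.

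**Figure D1:**
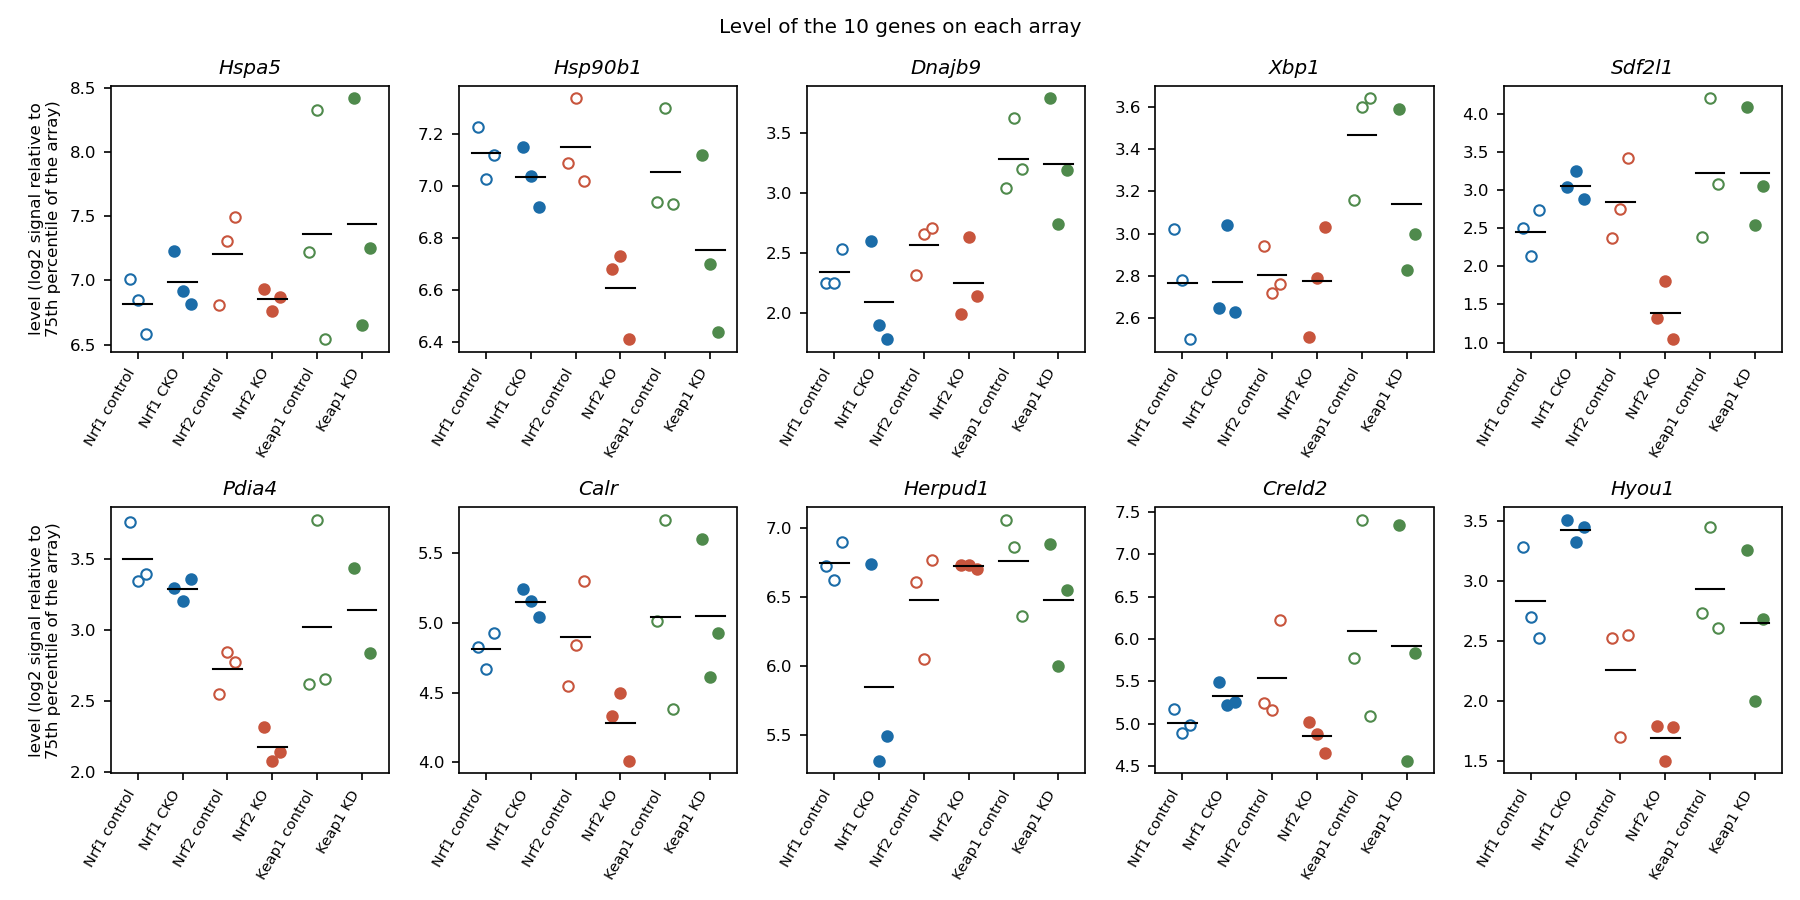
Level of each gene on each array, as log2 signal scaled to the 75th percentile of the array; open points are controls, filled points mutants, and the black bar is the mean of the group's arrays (n = 3; Pdia4 has 2 in Keap1 KD). The Nrf2 KO points of Sdf2l1, from 1.04 to 1.81, lie under its controls from 2.37 to 3.42, and Hspa5 and Creld2 show 1 high array in each Keap1 group.

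**Figure D2:**
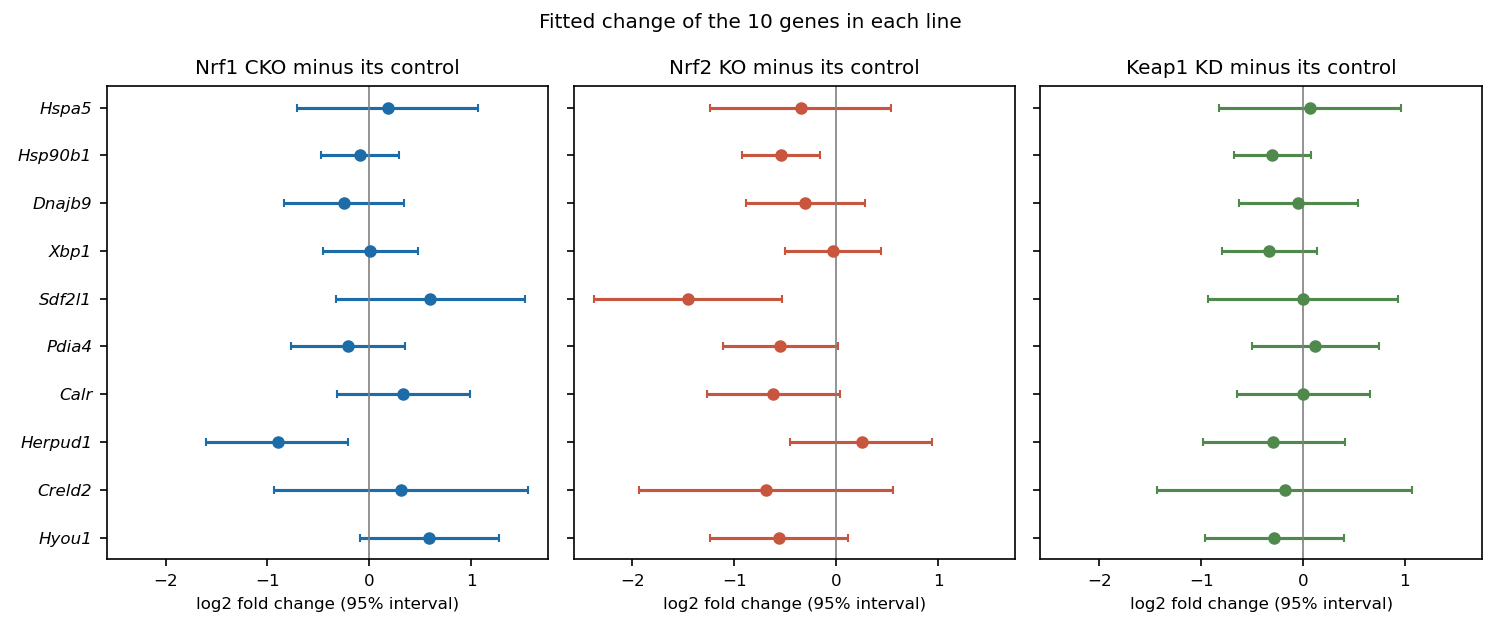
Fitted log2 change of each gene, mutant minus control of the same line, with its 95% interval from the limma fit. The Nrf2 KO changes lie below 0 for 9 of 10 genes, and the interval excludes 0 for Sdf2l1 and Hsp90b1 there and for Herpud1 in Nrf1 CKO.

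Hspa5 encodes BiP, the HSP70 chaperone of the ER lumen that also holds the sensors inactive. Its levels were 7.01, 6.85 and 6.58 on the Nrf1 control arrays and 7.23, 6.92 and 6.82 on the Nrf1 CKO arrays, which overlap. In the Nrf2 line they were 6.81, 7.31 and 7.49 in the control and 6.93, 6.76 and 6.87 in the KO, which overlap as well (change -0.35, SE 0.42, 95% interval -1.24 to 0.54). In the Keap1 line they were 7.22, 8.33 and 6.54 in the control and 8.42, 6.65 and 7.25 in the KD. The means there differed by 0.07 (95% interval -0.82 to 0.96), while the SD of the 3 arrays was 0.90 in each group. The widest range of Hspa5 was thus between arrays of 1 genotype.

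Hsp90b1 encodes GRP94, the HSP90 chaperone of the ER. Its levels were 7.09, 7.34 and 7.02 in the Nrf2 control and 6.68, 6.73 and 6.41 in Nrf2 KO. All 3 KO arrays lay below all 3 controls, by 0.54 on average (SE 0.18, 95% interval -0.92 to -0.16, adjusted p = 0.381), which did not pass. In the Nrf1 line the change was -0.09 (SE 0.18), from 7.13 ± 0.10 to 7.03 ± 0.11 (SD, n = 3), and in the Keap1 line -0.30 (SE 0.18), from 7.06 ± 0.21 to 6.75 ± 0.34; the groups overlapped in both.

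The array holds a second Hsp90b1 probe, and it differed between lines rather than between genotypes. On this probe the 6 arrays of the Nrf1 line read 4.53 to 5.23 and the 12 arrays of the other lines 6.20 to 7.39, a difference of 1.97 between the means with no overlap. The brighter probe of the same transcript read 6.92 to 7.23 and 6.41 to 7.34. The pair thus disagree on the level of the Nrf1 line, control and CKO alike, while their changes between mutant and control had the same sign in each line (second probe -0.25, -0.30 and -0.34 in Nrf1 CKO, Nrf2 KO and Keap1 KD). The Nrf1 line has its own slides and scan date, so line, its genetic background, slide and scan date cannot be told apart. Its strain label, mixed, is shared by the Keap1 line, but the label does not say whether the lines have the same background. The comparison of the 2 probes was chosen after its values were seen and has no test.

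**Figure D3:**
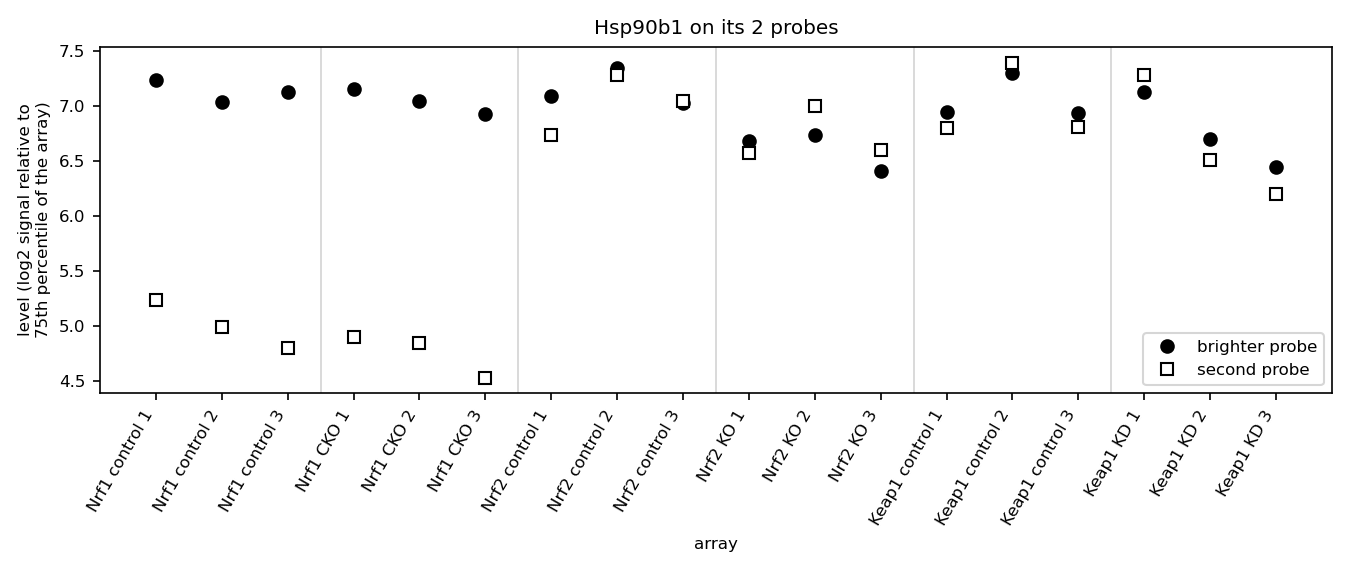
Level of Hsp90b1 on its brighter (filled circles) and second probe (open squares) on each of the 18 arrays, as log2 signal scaled to the 75th percentile of the array. The second probe lies between 4.53 and 5.23 on the 6 arrays of the Nrf1 line and at 6.20 or above on the other 12.

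Hyou1 encodes GRP170, a large relative of HSP70 that works with BiP. On the arrays of the Nrf1 line its levels were 3.28, 2.70 and 2.52 in the control and 3.51, 3.32 and 3.45 in the CKO, all above the controls (change 0.59, SE 0.32, adjusted p = 0.200). In the Nrf2 line they were 2.52, 1.70 and 2.55 in the control and 1.79, 1.50 and 1.78 in the KO (change -0.56, SE 0.32, adjusted p = 0.654), and 1 control array lay among the KO arrays. In the Keap1 line the change was -0.28 (SE 0.32). None of these changes passed.

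Sdf2l1, a component of ER chaperone complexes that acts with BiP and its J-domain partners, had the largest change of the 10. Its levels were 2.37, 2.75 and 3.42 in the Nrf2 control and 1.32, 1.81 and 1.04 in Nrf2 KO. The highest KO array lay below the lowest control, and the means differed by -1.45 (SE 0.44, 95% interval -2.38 to -0.53), which is 2.74-fold lower; the unadjusted p was 0.00446 and the adjusted p 0.320. Across the Nrf1 line the levels were 2.50, 2.13 and 2.74 in the control and 3.04, 3.25 and 2.88 in the CKO. Here the CKO arrays all lay above the controls, by 0.60 on average (SE 0.44, 95% interval -0.33 to 1.53, adjusted p = 0.349). In the Keap1 line they were 2.38, 4.21 and 3.08 in the control and 4.09, 2.54 and 3.05 in the KD, and the mean change was 0.00 (SE 0.44).

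Dnajb9 encodes ERdj4, a J-domain cochaperone of BiP that is a classic target of XBP1. Its levels in the Nrf1 line were 2.25, 2.25 and 2.53 in the control and 2.60, 1.90 and 1.78 in the CKO, and in the Nrf2 line 2.32, 2.66 and 2.71 in the control and 1.99, 2.63 and 2.14 in the KO. Both pairs of groups overlap (changes -0.25 and -0.31, SE 0.28 each). The Keap1 line read higher in both groups, 3.04, 3.62 and 3.20 in the control and 3.79, 2.74 and 3.19 in the KD, with a change of -0.05 (SE 0.28). Its 2 other probes, which are dimmer, read higher in the Keap1 line as well: the control means of the Nrf1, Nrf2 and Keap1 lines were -0.03, 0.05 and 0.91 on 1 of them and -0.31, 0.45 and 1.11 on the other. The Keap1 line shares slides and scan dates with the Nrf2 line, and the mixed strain label with the Nrf1 line. The cause of these differences between lines was not tested.

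Calr encodes calreticulin, the lectin chaperone that holds newly made glycoproteins in the ER and binds calcium. In the Nrf2 line its levels were 4.55, 4.84 and 5.30 in the control and 4.33, 4.50 and 4.01 in the KO, without overlap (change -0.62, SE 0.31, adjusted p = 0.590). In the Nrf1 line they were 4.83, 4.67 and 4.93 in the control and 5.24, 5.16 and 5.04 in the CKO, without overlap in the other direction (change 0.33, SE 0.31, adjusted p = 0.470). A second, dimmer probe gave -0.48 and 0.35 (SE 0.30 each). The Keap1 line read 5.01, 5.74 and 4.38 in the control and 5.60, 4.61 and 4.93 in the KD, with a mean change of 0.00.

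Pdia4 encodes ERp72, a protein disulfide isomerase. Its levels were 2.55, 2.85 and 2.78 in the Nrf2 control and 2.32, 2.08 and 2.14 in Nrf2 KO. The groups did not overlap, and the change was -0.55 (SE 0.26, 95% interval -1.11 to 0.02, adjusted p = 0.580). In the Nrf1 line both groups read higher than in the Nrf2 line, from 3.21 to 3.76, and the change was -0.21 (SE 0.26). In the Keap1 line the levels were 2.62, 3.78 and 2.66 in the control and 3.44 and 2.84 on KD arrays 1 and 3, since the spot of KD 2 was marked as an outlier and left out of the fit.

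Creld2, an ER protein induced by ER stress that interacts with disulfide isomerases, varied most between arrays of 1 group. Its levels were 5.78, 7.41 and 5.09 in the Keap1 control and 7.34, 4.56 and 5.84 in Keap1 KD, with group SDs of 1.19 and 1.39. In the Nrf2 line they were 5.25, 5.16 and 6.22 in the control and 5.02, 4.88 and 4.65 in the KO, which did not overlap (change -0.69, SE 0.59, adjusted p = 0.805). In the Nrf1 line they were 5.17, 4.89 and 4.98 in the control and 5.49, 5.22 and 5.26 in the CKO, all above the controls by a narrow margin (change 0.31, SE 0.59). That SE carries the Keap1 spread, as the SDs of the Nrf1 groups were 0.14 and 0.15.

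Herpud1, a membrane protein of the ER that supports the degradation of misfolded proteins, had changes of opposite sign to the median of the 10 genes in both knockouts, and neither passed. Its levels were 6.72, 6.62 and 6.90 in the Nrf1 control and 6.74, 5.31 and 5.49 in Nrf1 CKO. CKO arrays 2 and 3 lay more than 1 unit below every control, while CKO 1 lay among the controls. The mean change was -0.90 (SE 0.33, 95% interval -1.60 to -0.21, adjusted p = 0.0649), and without CKO 1 it was -1.35 (adjusted p = 0.00323), a call that rests on that array. It was also called with an intensity trend and with probes above background on all arrays (adjusted p = 0.0495 each) and with array quality weights, and over the 13 alternatives other than leaving out an array the adjusted p ranged from 6.80e-04 to 0.390. In the Nrf2 line the levels were 6.61, 6.05 and 6.77 in the control and 6.73, 6.73 and 6.70 in the KO (change 0.25, SE 0.33), and in the Keap1 line 7.06, 6.86 and 6.36 and then 6.88, 6.00 and 6.55 (change -0.29, SE 0.33).

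Xbp1 encodes the transcription factor that IRE1 activates by splicing its transcript; its probe gives the gene's signal and does not separate spliced from unspliced forms. The change was 0.01 in Nrf1 CKO (95% interval -0.46 to 0.48), -0.03 in Nrf2 KO (-0.50 to 0.44) and -0.33 in Keap1 KD (-0.80 to 0.14). The levels lay between 2.50 and 3.04 on the 12 arrays of the Nrf1 and Nrf2 lines and between 2.83 and 3.64 in the Keap1 line, where the groups overlapped.

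The difference between the Nrf1 CKO and Nrf2 KO effects was also tested gene by gene, and none of the 10 passed (all genes: 5.60%, 993 genes). Sdf2l1 came nearest, with effects that differed by 2.05 (SE 0.62, 95% interval 0.74 to 3.37, adjusted p = 0.0610). Hyou1 (1.16, SE 0.45), Calr (0.95, SE 0.43) and Herpud1 (-1.15, SE 0.46) also had unadjusted p under 0.05, which 24.0% of all genes had. Sdf2l1 passed in 4 of the alternatives (quantile normalization, probes above background on all arrays, an intensity trend, array quality weights) and in the fit of the compared lines alone. None of the 10 passed between Nrf1 CKO and Keap1 KD (all genes 6.96%) or between Nrf2 KO and Keap1 KD (3.08%). At an unadjusted p under 0.05 there were 0 (27.9% of all genes) and 1 (Sdf2l1, -1.46, SE 0.62; 17.1% of all genes).

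Within groups the 10 genes tended to lie high or low on the same arrays, most of all in the Keap1 line. On Keap1 control 2 and Keap1 KD 1 all 10 genes lay above the mean of their group, by 0.61 and 0.65 on average, and on Keap1 KD 2 all 9 genes with a value lay below it, by 0.58 on average (-0.58). The median SD of the 10 genes was 0.56 in Keap1 controls and 0.51 in Keap1 KD, and from 0.17 to 0.37 in the other 4 groups; over all genes it was 0.32 and 0.30 and from 0.17 to 0.24. The high arrays are 1 control and 1 mutant on different slides and scan dates, and without both the Keap1 KD median of the 10 genes was -0.19 and still none was called. Plasma cells and pancreatic acinar cells hold much ER. The summed signal of 6 plasma cell markers, on a linear scale with the 75th percentile of the array as 1, was 32.6 and 24.7 on the high arrays and 19.7 to 24.9 on the other Keap1 arrays, and that of 10 acinar markers 5.96 and 9.30 against 4.68 to 8.76. On the Keap1 arrays 94.6% to 97.8% of the plasma cell sum was Sdc1, which hepatocytes also express, and 90.7% to 95.1% of the acinar sum was Amy2a5, so that the sums follow mainly those genes. Without Sdc1 the plasma cell sum was 0.725 and 0.972 against 0.774 to 1.17, and without Amy2a5 the acinar sum was 0.556 and 0.466 against 0.339 to 0.497; Tnfrsf17, a defining plasma cell marker, was above background on no array. Their part in this variation was not tested. These 2 arrays had 24426 and 21668 spots above background, and the other Keap1 arrays 23419 to 28213.

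**Figure D4:**
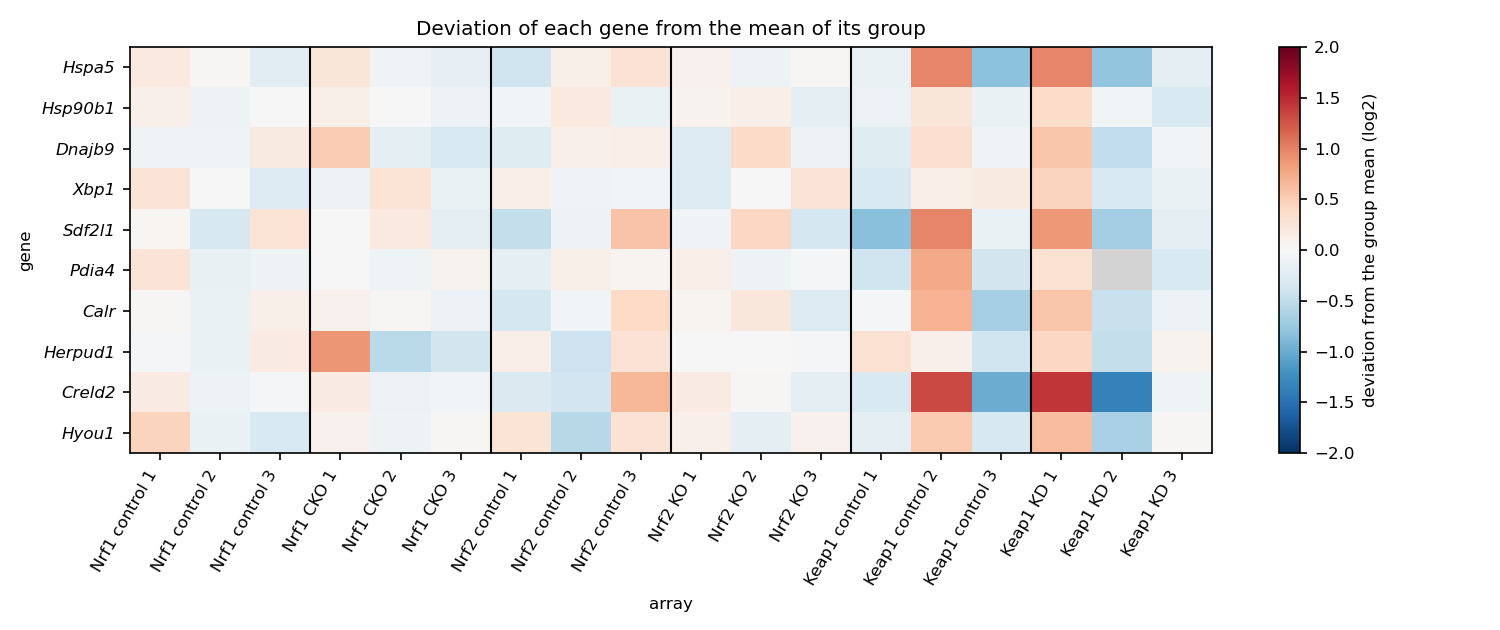
Deviation of each gene (rows) from the mean of its group on each of the 18 arrays (columns), in log2 units; red is above the group mean, blue below, and grey a missing value. Keap1 control 2 and Keap1 KD 1 are red for all 10 genes, and Keap1 KD 2 is blue for all 9 with a value.

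Over all 18 arrays, deviations from group means correlated between the genes with a median r of 0.61 over 45 pairs, and 29 pairs lay above 0.5. The closest pairs were Hspa5 and Creld2 (r = 0.94), Calr and Creld2 (0.92) and Hspa5 and Calr (0.89). On the 12 arrays without the Keap1 line the median was 0.26, with 30 of 45 pairs above 0. Against the mean deviation of the 10 genes, r was 0.98 for Creld2, 0.95 for Hspa5 and 0.91 for Calr, and lowest for Xbp1 (0.48), Herpud1 (0.57) and Hsp90b1 (0.66); each gene is part of that mean. The 8 other genes with a symbol most like it were Slc35b1 (0.96), Manf (0.95), Rbm10 (0.93), Qsox1, Ero1b, Ubxn4 and Wrap73 (0.92 each) and Sel1l (0.91). Without the Keap1 line these r ranged from 0.42 (Ubxn4) to 0.92 (Slc35b1). Among 73 other genes of the ER and unfolded protein response the median r was 0.55 and 56.2% were above 0.5, against 0.00 and 13.2% of all genes. All these values share the scaling of each array and are given as a description over 18 arrays.

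The wider pathway was read from 6 lists with 83 measured genes, the 10 included. In Nrf2 KO none of the 83 was called, and 62 lay below 0. All 15 measured genes of translocation into the ER and signal peptide processing were below 0 (median -0.35), with 7 whose KO arrays all lay below the controls (11.1% of all genes), and 16 of 17 chaperones and cochaperones were below 0 (median -0.35), against 49.2% of all genes. Disulfide isomerases and oxidases had 8 of 12 below 0 (median -0.16), and genes of ER-associated degradation 12 of 18 (median -0.14). The genes listed for the PERK arm, the branch that acts through ATF4, had 7 of 10 above 0 (median 0.20). The sensors and transcription factors had 8 of 11 below 0 (median -0.09).

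In Nrf1 CKO 3 of the 83 genes were called higher and 11 lower; of all genes 7.96% were called higher and 11.0% lower. The lower calls were most numerous among the 18 genes of ER-associated degradation, with 5 lower and 0 higher and a median of -0.31. Os9, a lectin that recognizes misfolded glycoproteins, fell from 5.17 ± 0.12 to 4.40 ± 0.20 (SD, n = 3; log2 change -0.77, SE 0.18, adjusted p = 0.0119). Vcp, the ATPase that pulls proteins from the ER membrane, fell by 0.74 (adjusted p = 0.0117), Rnf5, a ubiquitin ligase, by 0.68 (adjusted p = 0.0170) and Derl2, a channel component, by 0.61 (adjusted p = 0.0310). With quantile normalization Vcp was at -0.40 (adjusted p = 0.0642) and Derl2 at -0.16 (adjusted p = 0.473), and neither passed. Herpud2, a relative of Herpud1 named here because it completes the count, fell by 0.56 (adjusted p = 0.0337). Herpud1 itself is on this list and, as given above, did not pass.

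Among chaperones and cochaperones in Nrf1 CKO, 1 of 17 was called higher and 1 lower. Sec63, a J-domain protein at the translocon, rose from 1.57 ± 0.13 to 2.43 ± 0.27 (log2 change 0.86, SE 0.17, adjusted p = 0.00525), though with normexp background correction its change was -0.08 and with the mean of all its probes 0.14 (adjusted p = 0.594), so that the call rests on the brightest probe. Sil1, the nucleotide exchange factor of BiP, fell by 0.45 (adjusted p = 0.0477), a call at the edge of the threshold that was lost in most of the alternatives; its change was 0.00 with quantile normalization (adjusted p = 0.995). Of 12 disulfide isomerases and oxidases 2 were lower, Pdia5 by 0.80 (adjusted p = 0.0265) and the peroxiredoxin Prdx4 by 0.57 (adjusted p = 0.0318; -0.13 and 0.590 with quantile normalization). None of 15 translocation genes was called.

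The sensors did not pass in Nrf1 CKO. Ern1, which encodes IRE1, had a change of 0.32 (SE 0.23), Eif2ak3, which encodes PERK, of 0.62 (SE 0.22, adjusted p = 0.0628) and Atf6 of -0.15 (SE 0.23). Atf4 had a change of 0.25 (SE 0.17). Ddit3, which encodes the factor CHOP, rose from -0.36 ± 0.11 to 0.52 ± 0.13 (change 0.88, SE 0.17, adjusted p = 0.00431), and Creb3l3, a liver factor activated by cleavage like ATF6, fell from 6.94 ± 0.03 to 6.28 ± 0.16 (change -0.67, SE 0.14, adjusted p = 0.00721; -0.17 and 0.410 with quantile normalization, where the call was lost). Of 10 genes listed for the PERK arm, 1 rose and 2 fell. Atf3, a stress-induced transcription factor, rose from -1.38 ± 0.37 to 2.05 ± 0.28 (change 3.42, SE 0.32, adjusted p = 4.14e-05). Chac1, which degrades glutathione, fell from 2.86 ± 0.27 to 0.94 ± 0.87 (change -1.92, SE 0.51, adjusted p = 0.0186). Ppp1r15b, a phosphatase subunit that reverses PERK signalling rather than a target of it, fell by 0.74 (adjusted p = 0.00785). Of the 10 genes of this list 6 were above 0, with a median of 0.22. Atf3 and Ddit3 are known to be induced by other stresses as well.

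None of the 83 genes was called in Keap1 KD, where 0.965% of all genes were called higher and 4.59% lower. Trib3, a pseudokinase induced by ATF4 and CHOP and named here for its size, had the lowest adjusted p (change 1.34, SE 0.38, adjusted p = 0.0516). The median over the 83 genes was -0.04. Of the sensors and factors Ern1, Eif2ak3, Atf6, Atf4, Ddit3 and Creb3l3, none was called in Nrf2 KO or Keap1 KD, with changes from -0.52 (Ern1 in Nrf2 KO, adjusted p = 0.550) to 0.28 (Atf4 in Keap1 KD, adjusted p = 0.475).

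**Figure D5:**
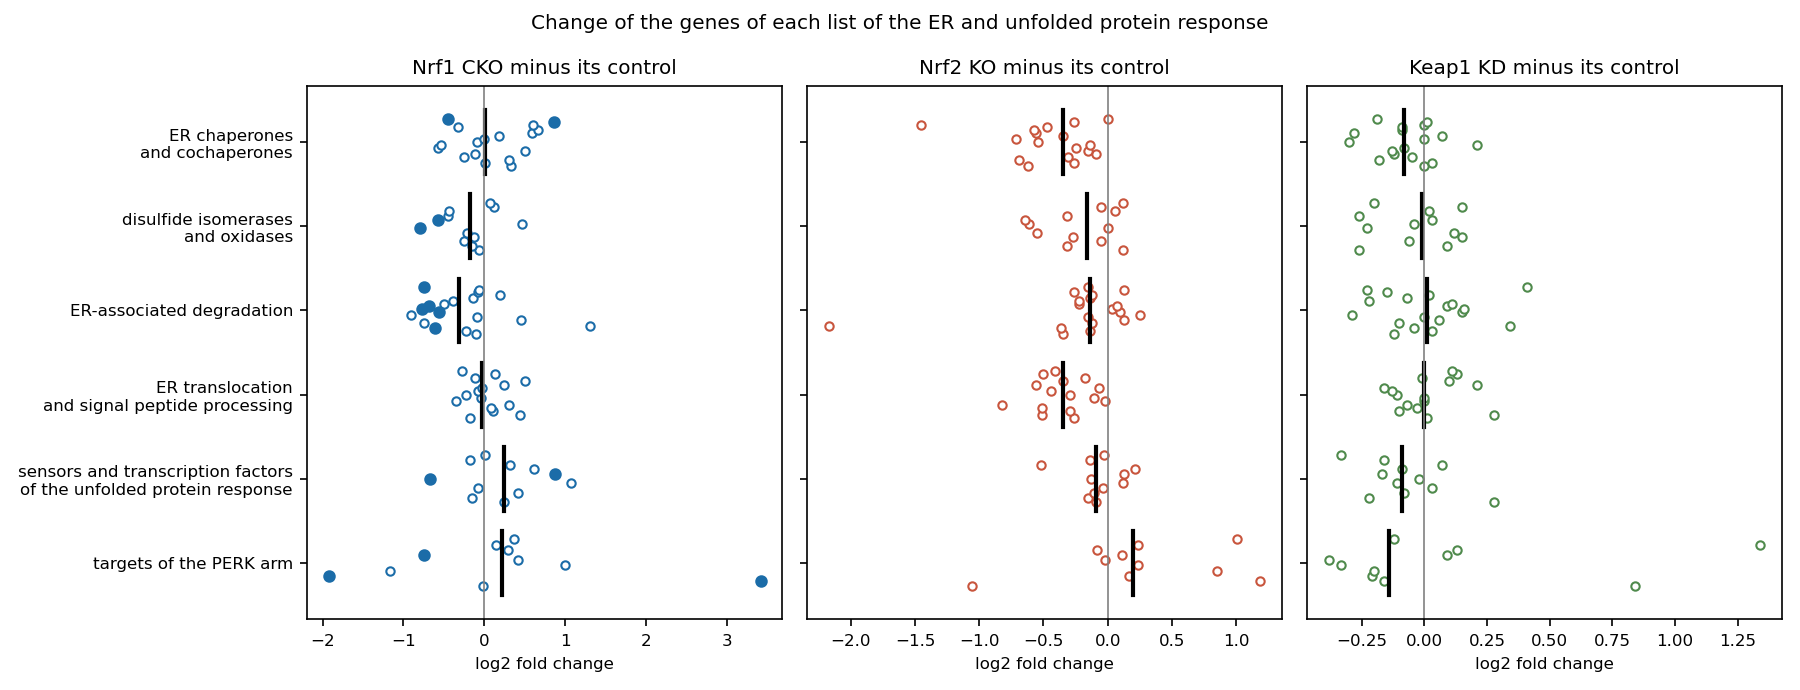
Log2 change of each measured gene of 6 lists in each line, mutant minus control; filled points passed at an adjusted p under 0.05, open points did not, and the black line is the list's median. The filled points are all in Nrf1 CKO, with Atf3 at 3.42 and Chac1 at -1.92 farthest out, and the Nrf2 KO points of chaperones and translocation genes lie mostly below 0 with no call.

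In Nrf1 CKO, markers of other liver cell types moved beside these genes: 9 of 10 stellate and fibroblast markers and 5 of 9 macrophage markers were called higher, and 4 of 8 hepatocyte markers lower. The summed signal of the stellate list was 88.0 to 114 in controls and 134 to 190 in the CKO, that of the macrophage list 96.9 to 185 and 188 to 404, and that of the hepatocyte list 2100 to 2520 and 1260 to 1880. Bright genes weigh most in such linear sums. Dcn in the stellate list (control mean 6.13, limma adjusted p = 0.130) and Alb in the hepatocyte list (10.26, adjusted p = 0.0788) were not called. Marco, in the macrophage list, reached 7.56 on 1 CKO array, and its groups overlapped although it was called. Of the sinusoidal endothelial markers 1 of 9 was lower, and 1 of 7 cholangiocyte, 1 of 6 lymphocyte and 1 of 5 pancreatic acinar markers were higher. The acinar gene called, here and in Keap1 KD, was Cela1, above background on 14 of 18 arrays. Its means were -4.14 in the Nrf1 control and -2.92 in the CKO. Cpa1, another acinar marker, was above background on no array. No plasma cell marker was called in any line. The part of these cells in the changes was not tested. In Nrf2 KO no gene of any of the 8 marker lists was called, and in Keap1 KD 1 gene each of the macrophage and endothelial lists was higher and 1 each of the acinar and stellate lists lower.

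The slides were shared unevenly between groups. Control 3 of the Nrf1 line lay on the slide of all 3 CKO arrays, and against it alone the median of the 10 genes was 0.24, Herpud1 was -1.06 and Hyou1 0.91. No slide and no scan date held both Nrf2 groups, so that within the Nrf2 line batch and genotype cannot be told apart; with slide as a block, which ties them through Keap1 arrays on the same slides, Keap1 control 2 and Keap1 KD 1 among them, the Nrf2 KO median was -0.95 and none of the 10 was called. On the slide shared by 1 array of each Keap1 group the median was 0.13, and on the scan date shared by 1 KD and 2 control arrays -0.36. With slide as a block Atf3 alone of the 13 called genes named by rule kept its call, and 65 genes were called in Nrf1 CKO in all; all 13 changes kept their sign there, with -0.66 for Os9, 0.83 for Ddit3 and -1.91 for Chac1. Slide as a random block had an estimated correlation of -0.02, which makes that fit nearly the one without a block. Without Nrf1 CKO 3, 4 of the 13 kept their calls (Sec63, Ddit3, Creb3l3 and Atf3), without Nrf1 CKO 2, 6 did, and without 1 of the other 4 arrays of the line from 8 to 13.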

How the data were processed

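Per the labels' protocols, total RNA was extracted with Isogen and 500 ng was labelled with Cy3 for Agilent mouse arrays. Per the file headers, images were read with Agilent Feature Extraction 10.7.3.1, whose processed signal, a deposited intensity, is background-subtracted and spatially detrended, without normalization across arrays. Per the file headers, the deposited spot and background medians are raw intensities. The flags and control types (other output of that software) are as deposited by the authors.

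Control spots and outlier spots were left out, spots of a probe averaged on the log2 scale, and each array's log2 75th percentile subtracted. The brightest probe per gene was tested among those above background throughout at least 1 group. limma 3.58.1 (R 4.3.3) was fitted to 6 group means (12 residual degrees of freedom), with Benjamini-Hochberg adjustment over 17721 genes; the scripts were tested on simulated data. The genes and lists were chosen with earlier results of these data known. Named are the 10 genes, 6 sensors and factors, up to 4 called genes per list and comparison by size, and the 8 most like the mean of the 10. The number of arrays limits the precision. Same-numbered samples deviated together by r from -0.36 to 0.15, and the main fit did not pair samples by number. With 3 samples per group these values cannot exclude a pairing. Alternatives were other scalings, background correction, filters, probe rules, trend, weights, blocks and arrays left out; slide as a random block, leaving out both high Keap1 arrays, and marker sums without their brightest gene were added after seeing the data.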

Additional observations from a re-analysis of the deposited data

Results flagged for a closer look

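Of the genes named from the wider lists, 6 had an effect in Nrf1 CKO that differed from that in another line by limma (Benjamini-Hochberg over all genes). These genes were named for their calls in Nrf1 CKO, which enter the difference too, so the values are a description and not independent support. Against Keap1 KD the effect in Nrf1 CKO was higher for Atf3 by 3.59 (SE 0.45, adjusted p = 8.05e-04), Ddit3 by 1.06 (SE 0.24, adjusted p = 0.0233) and Sec63 by 0.85 (SE 0.25, adjusted p = 0.0484). It was lower for Vcp (-1.15, SE 0.25, adjusted p = 0.0201), Os9 (-0.93, SE 0.26, adjusted p = 0.0445) and Ppp1r15b (-0.84, SE 0.23, adjusted p = 0.0426). Against Nrf2 KO it was higher for Atf3 by 2.23 (SE 0.45, adjusted p = 0.0137) and Sec63 by 1.13 (SE 0.25, adjusted p = 0.0191), and lower for Ppp1r15b (-0.86, SE 0.23, adjusted p = 0.0438).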

How the results depend on the processing

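None of the 10 genes was called in Nrf2 KO or Keap1 KD under any alternative run. In Nrf1 CKO 1, Herpud1, was called with probes above background on all arrays, with an intensity trend and with array quality weights, and with single arrays left out the count ranged from 0 to 1. The count differing between Nrf1 CKO and Nrf2 KO was 2 with quantile normalization (Hsp90b1, Sdf2l1), 4 with array quality weights (Sdf2l1, Calr, Herpud1, Hyou1), 1 with probes above background on all arrays, an intensity trend or the compared lines alone (Sdf2l1), and 0 to 1 with single arrays left out. Between Nrf1 CKO and Keap1 KD it was 1 with quantile normalization (Hsp90b1). The Nrf1 CKO median was 0.49 with quantile normalization, 0.24 with slide as a block and -0.01 with array-median scaling, and the Nrf2 KO median -0.95 with slide as a block and -0.76 with normexp correction. The Keap1 KD median turned from -0.11 to 0.18 with array-median scaling, where the median of all genes was 0.30, and to 0.23 with normexp correction, where all 10 lay above the median of all genes (-0.07). With single arrays left out the medians ranged from -0.02 to 0.21 (Nrf1 CKO), from -0.60 to -0.39 (Nrf2 KO) and from -0.46 to 0.23 (Keap1 KD). Scaling to the array median moved the median of all genes to 0.30 in Keap1 KD and -0.20 in Nrf1 CKO. The replicate block, which pairs samples by their number, gave 0 members called in every line and 2805 genes in Nrf1 CKO against 3364. Over all genes, Nrf1 CKO calls were 346 with normexp correction, 65 with slide as a block, 8138 with array weights and 2094 without the background filter; of 13 named called genes 2, 1, 13 and 9 kept their call. Nrf2 KO calls were 7, 11, 74 and 9 and Keap1 KD calls 55, 55, 236 and 614. Nrf2 KO calls were also 22 with array-median scaling, 20 with an intensity trend, 7 with scan date as a block and 5 with the replicate block, and Keap1 KD calls 555 with quantile normalization, 440 with probes above background on all arrays, 258 with scan date as a block and 637 with the replicate block. Over the 12 alternatives fitted to all arrays, genes differing between lines numbered 8 to 5100 (Nrf1 CKO against Nrf2 KO, 993), 11 to 2604 (against Keap1 KD, 1233) and 27 to 551 (Nrf2 KO against Keap1 KD, 546).

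Signs turned as follows. With quantile normalization Hsp90b1 in Nrf1 CKO was 0.36, Xbp1 in Nrf2 KO 0.02, and in Keap1 KD Hspa5 -0.04, Sdf2l1 -0.11 and Calr -0.10. With array-median scaling Xbp1 in Nrf1 CKO was -0.10, and in Keap1 KD Dnajb9 0.25, Herpud1 0.01, Creld2 0.11 and Hyou1 0.02. With normexp correction Sec63 in Nrf1 CKO was -0.08, Herpud1 in Nrf2 KO -0.10, and in Keap1 KD Hsp90b1 0.08, Dnajb9 0.21, Herpud1 0.12, Creld2 0.25 and Hyou1 0.05. With the mean of all probes Atf6 in Nrf1 CKO was 0.21 and Calr in Keap1 KD -0.07. With array weights in Keap1 KD Hspa5 was -0.29, Sdf2l1 -0.17, Pdia4 -0.05 and Calr -0.25. With slide as a block Atf6 in Nrf1 CKO was 0.17, and in Keap1 KD Dnajb9 0.04, Sdf2l1 -0.07, Pdia4 -0.01 and Creld2 0.03. With scan date as a block in Keap1 KD Hspa5 was -0.14, Sdf2l1 -0.30 and Pdia4 -0.25, and with slide as a random block Sdf2l1 and Calr were 0.00. With single arrays left out Xbp1 ranged from -0.13 to 0.14 in Nrf1 CKO and from -0.16 to 0.10 in Nrf2 KO, and in Keap1 KD Hspa5 from -0.42 to 0.56, Dnajb9 from -0.32 to 0.20, Sdf2l1 from -0.43 to 0.49, Pdia4 from -0.18 to 0.50, Calr from -0.33 to 0.35, Creld2 from -0.89 to 0.49 and Hyou1 from -0.59 to 0.04. The causes were not tested, and none of these values passed.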
